A study of Saccharomyces cerevisiae with 6 samples.

Results

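The genes described here encode the proteins of the cytosolic small ribosomal subunit of budding yeast, Saccharomyces cerevisiae. They were taken as the probe sets that the array annotation pairs with exactly 1 gene whose symbol begins with RPS and a digit, with the brightest probe set kept where a gene has several. This gave 52 of the 5449 S. cerevisiae genes measured, out of 56 such genes in the RefSeq gene table. The other 4 were not analysed here, because no probe set carries their name alone. Of the 52 genes, 42 form 21 complete A/B pairs, 3 (RPS4B, RPS6B and RPS30A) are pair members measured without their partner, and 7 have no paralogue. For 15 genes the probe set used is one that the manufacturer marks with _s_at or _x_at as shared by related sequences, and its value can include the near-identical partner.

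Cultures of the haploid strain BY4742 in mid-log growth were diluted into fresh rich medium (YPD) with 80 µM clioquinol (CQ), a metal-chelating quinoline, or with 1% of the solvent dimethyl sulfoxide (DMSO). RNA was taken after 5 h, with 3 biological replicates and 1 array each for CQ and for DMSO. Whether the CQ cultures also held DMSO is not stated in the labels, and an effect of the solvent cannot be told apart from one of CQ. All cultures carry the marker deletions of BY4742, and a change in every cell cannot be told apart from a larger change in some of the cells.

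The small subunit reads the messenger RNA. The path of the mRNA and the decoding centre lie between its head and its body and platform, and its head moves during translocation. Most of its proteins are encoded in yeast by pairs of paralogous genes, left from an ancient genome duplication, whose products are identical or nearly so. The genes are among the most strongly transcribed of the genome, are driven by Rap1, Fhl1 and Ifh1, and respond together to nutrients and stress through the TOR complex 1 and protein kinase A pathways. Many of them carry introns, and several are known to regulate their own transcripts.

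All 52 genes lay above background on all 6 arrays, where background is the level under which 95% of the fission yeast probe sets fell. The lowest intensity of a member was 3.68 times that level on its array, and the highest was 62.8% of the array maximum. The median intensity over all genes was 994, 977 and 1008 on the CQ arrays and 926, 891 and 889.7 on the DMSO arrays. The probe-position index, which averages the log2 ratio of 3' to 5' probe sets over 6 control genes and reflects how complete the labelled RNA is, was 1.30, 1.53 and 1.15 on the CQ arrays and 0.96, 0.96 and 0.88 on the DMSO arrays (exact two-sided permutation p = 0.1, the smallest that 3 against 3 arrays allow).

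Most small-subunit genes fell with CQ, and RPS22B and RPS14B went the other way. Among the 52 genes, the limma fit called 37 lower and 2 higher with CQ at an adjusted p under 0.05, which left 13 uncalled. Over all genes of the array 31.9% fell and 36.1% rose, against 71.2% and 3.85% of the small-subunit genes. The median log2 difference, CQ minus DMSO, was -0.55 over the members, with quartiles of -0.78 and -0.30, against 0.02 over all genes. The differences of single members ran from -1.37 to 1.13, with standard errors (SE) of 0.09 to 0.19. The genes called lower that fell at least 2-fold were 4 of the 52, RPS0B, RPS26B, RPS19A and RPS28A. Over all 5449 genes 409 did so, and no excess of such large decreases among the members was tested.

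With each array centred on its median 46 members fell and 2 rose, with a median of -0.68; that centring moved the median of all genes to -0.11 and the calls over all genes to 2211 lower and 1578 higher with CQ, against 1739 lower and 1969 higher as deposited. With the probe-position index as a covariate 49 members fell and only RPS22B rose, and the median of the members was -0.95.

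**Figure D1:**
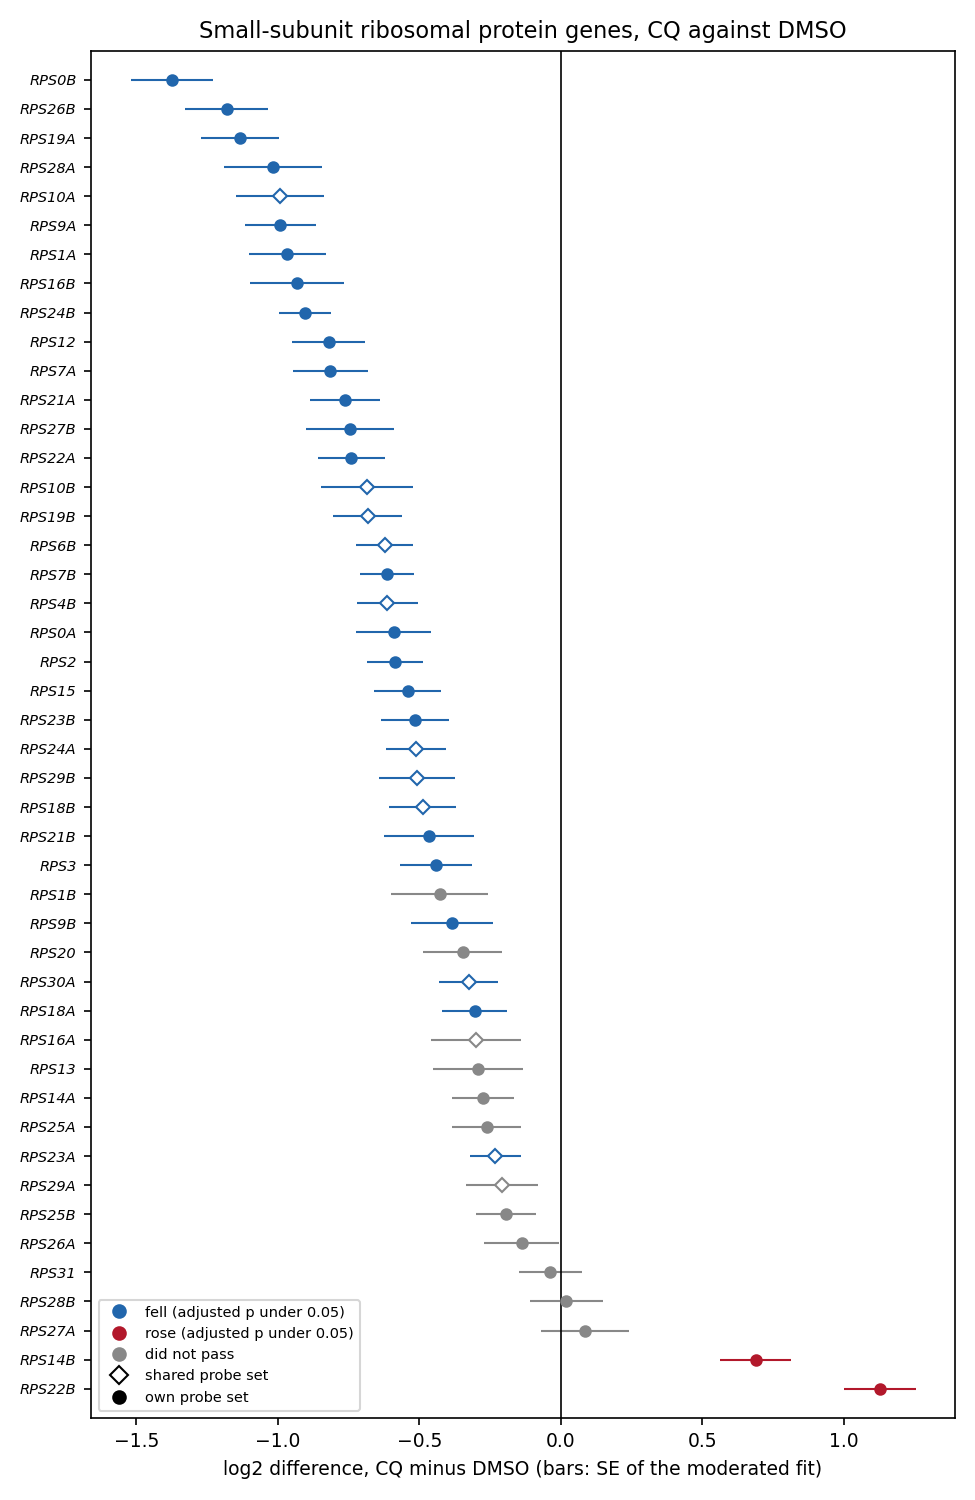
Log2 differences, CQ minus DMSO, of 46 of the small-subunit ribosomal protein genes, ordered from the largest decrease to the largest increase, with SE of the limma fit over 3 arrays per group. Most genes lie left of 0, between RPS0B at -1.37 and a group near 0, and RPS14B (0.69) and RPS22B (1.13) lie apart on the right.

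RPS22B (YLR367W), which encodes Rps22 (uS8), a protein of the body that binds 18S rRNA, had the largest increase. Its intensities were 2174, 2108 and 1572 with CQ, against 911, 845 and 873 with DMSO. Every CQ array exceeded every DMSO array, and the log2 difference was 1.13 ± 0.13 (SE, limma adjusted p = 0.000108; 95% interval 0.83 to 1.42). The increase was past the threshold in all 19 alternative settings run for it, from 0.75 with the probe-position index as a covariate to 1.27 without CQ replicate 3.

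RPS22B carries introns that its paralogue lacks, and the RNase III enzyme Rnt1 is known to cut its unspliced RNA. In the RefSeq table of assembly R64 its span is 876 bases, against 393 bases for RPS22A (YJL190C), and the snoRNA gene SNR44 lies inside it. The array gives 1 value for a gene, and spliced and unspliced RNA cannot be told apart in it. RPS22A went the opposite way, with 2097, 2128 and 1600.2 with CQ and 3061, 3285 and 3345 with DMSO. All its CQ arrays lay under all its DMSO arrays, and it fell by 0.74 ± 0.12 on the log2 scale (SE, limma adjusted p = 0.00078).

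RPS14B (YJL191W) was the other gene that rose. It encodes Rps14 (uS11), a platform protein that is known to bind the RPS14B pre-mRNA and to limit its splicing. Its intensities were 1656, 1768 and 1369 with CQ and 884, 1123 and 949 with DMSO, again without overlap, and its log2 difference was 0.69 ± 0.13 (SE, limma adjusted p = 0.00154). The index averaged 1.33 with CQ and 0.93 with DMSO, and with it as a covariate the difference of RPS14B was 0.32 and did not pass (limma adjusted p = 0.203). Its paralogue RPS14A (YCR031C), the main source of the protein, read 5664, 6396 and 4778 with CQ and 6627, 6945 and 6682 with DMSO. The CQ arrays of RPS14A were all lower, but its difference of -0.28 ± 0.11 (SE) had a limma adjusted p of 0.0543.

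RPS14B and RPS22A are direct neighbours, with 0 genes of the RefSeq table between them, and they moved in opposite directions. SOP4, the neighbour of RPS14B on the other side, fell by 0.34 on the log2 scale (limma adjusted p = 0.00888).

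The largest decreases came from genes of both the body and the head. RPS0B (YLR048W) encodes Rps0 (uS2), a late-joining protein of the body that is needed to mature the 3' end of 18S rRNA. Its intensities were 1789, 1640.2 and 1183 with CQ, against 3797, 3992 and 4077 with DMSO. The highest CQ array was under 50% of the lowest DMSO array, and the log2 difference was -1.37 ± 0.15 (SE, limma adjusted p = 7.98e-05).

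RPS26B (YER131W) encodes Rps26 (eS26), which lines the mRNA exit channel, binds zinc and is brought to the ribosome by the escort protein Tsr2. It read 1569, 1945 and 1267 with CQ and 3503, 3819 and 3432 with DMSO, and fell by 1.18 ± 0.15 on the log2 scale (SE, limma adjusted p = 0.000186). RPS19A (YOL121C) encodes Rps19 (eS19) of the head, whose human counterpart is mutated in Diamond-Blackfan anaemia. Its values were 1258, 1439.6 and 976 with CQ and 2513, 2796 and 2717 with DMSO, for a difference of -1.13 ± 0.14 (SE, limma adjusted p = 0.000165). Neither gene had overlapping groups.

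RPS28A (YOR167C) encodes Rps28 (eS28), a small head protein at the mRNA exit. It had 2039, 3174 and 1953 with CQ and 4538, 4940.3 and 4722 with DMSO, with CQ replicate 2 well above the other CQ arrays but under every DMSO array. The log2 difference was -1.02 ± 0.17 (SE, limma adjusted p = 0.0011).

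RPS10A (YOR293W) encodes Rps10 (eS10), a head protein near the mRNA entry. On a shared probe set it read 1660.1, 1976 and 1249 with CQ and 3009, 3284 and 3326 with DMSO, and it fell by 0.99 ± 0.15 on the log2 scale (SE). RPS9A (YPL081W) encodes Rps9 (uS4), one of the first proteins to bind 18S rRNA. Its values were 233, 219 and 168 with CQ and 466, 405 and 402 with DMSO, for a difference of -0.99 ± 0.13 (SE). These were the lowest intensities of any member, still above background on every array.

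RPS1A (YLR441C) encodes Rps1 (eS1) of the platform. It gave 1548, 1806 and 1235 with CQ and 2766, 2999 and 3156 with DMSO, and its difference was -0.97 ± 0.14 (SE). The groups were separate for all of these genes from RPS0B to RPS1A, and the largest limma adjusted p among them was 0.0011 (RPS28A).

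At the other end of the decreases, a handful of genes had differences near 0. RPS31 (YLR167W) encodes a fusion of ubiquitin with the head protein Rps31 (eS31) and so also supplies ubiquitin. Its intensities were 7307, 8974 and 6724 with CQ and 7666, 7925 and 7858 with DMSO. The CQ arrays lay on both sides of the DMSO arrays, with a log2 difference of -0.04 ± 0.11 (SE, limma adjusted p = 0.777, 95% interval -0.29 to 0.22). With the probe-position index as a covariate the difference of RPS31 was -0.45 and passed (limma adjusted p = 0.0232).

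RPS28B (YLR264W) encodes the same protein family as RPS28A, and Rps28 is known to promote decay of the RPS28B mRNA together with Edc3. It read 1686, 1747 and 1296 with CQ and 1459.6, 1719 and 1465 with DMSO, a difference of 0.02 ± 0.13 (SE, limma adjusted p = 0.908) that turned to -0.12 with arrays centred on their median and to -0.41 with the index as a covariate. RPS27A (YKL156W) encodes Rps27 (eS27), a zinc-binding protein of the platform. It had 1415, 1701 and 1081 with CQ and 1315, 1388 and 1196 with DMSO, a difference of 0.08 ± 0.16 (SE, limma adjusted p = 0.652) that turned to -0.052 with that centring and, with the index as a covariate, to -0.59, which passed (limma adjusted p = 0.00941). RPS28B and RPS27A each had a CQ array above and another below all DMSO arrays.

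RPS26A (YGL189C), the paralogue of RPS26B, had 4317, 5636 and 3864 with CQ and 5003, 5023 and 4997 with DMSO. The difference was -0.14 ± 0.13 (SE, limma adjusted p = 0.376; 95% interval -0.45 to 0.17). CQ replicate 2 alone lay above the DMSO arrays, and without it RPS26A passed at -0.29 (limma adjusted p = 0.00873). RPS26A also passed with the index as a covariate, at -0.69 (limma adjusted p = 0.00407). Further members that did not pass were RPS1B (-0.43), RPS20 (-0.35), RPS16A (-0.30), RPS13 (-0.29), RPS14A (-0.28), RPS25A (-0.26), RPS29A (-0.21) and RPS25B (-0.19), all with a negative difference. Each of these further members passed as lower without CQ replicate 2, where their differences ran from -0.29 (RPS25B) to -0.58 (RPS1B). Without CQ replicate 3 none of them passed, with differences between -0.22 (RPS1B) and -0.10 (RPS25B), and RPS26A was then at -0.022.

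The spread among CQ arrays was shared by the members. CQ replicate 3 had the lowest value of the CQ arrays for 51 of the 52 genes, and CQ replicate 2 had the highest for 45. The median over members of the deviation from the DMSO mean, on the log2 scale, was -0.51, -0.31 and -0.79 on CQ replicates 1, 2 and 3 and -0.06, 0.04 and 0.02 on the DMSO arrays. The median standard deviation (SD) of a member over 3 arrays was 0.25 with CQ and 0.06 with DMSO on that scale, against 0.13 and 0.07 for all genes. The probe-position index followed the same order on the CQ arrays, 1.53 on replicate 2, 1.30 on replicate 1 and 1.15 on replicate 3, and its part in the spread was not tested. Without CQ replicate 2, 47 members fell and 2 rose with a median of -0.65, and without CQ replicate 3, 32 fell and 2 rose with a median of -0.42. RPS18A, RPS21B and RPS30A fell by 0.31, 0.47 and 0.33 over all arrays but did not pass when either of CQ replicates 1 and 3 or of DMSO replicates 2 and 3 was left out, and RPS21B also not without DMSO replicate 1. Their differences were then between -0.30 and -0.21 for RPS18A, -0.48 and -0.30 for RPS21B, and -0.34 and -0.25 for RPS30A.

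**Figure D2:**
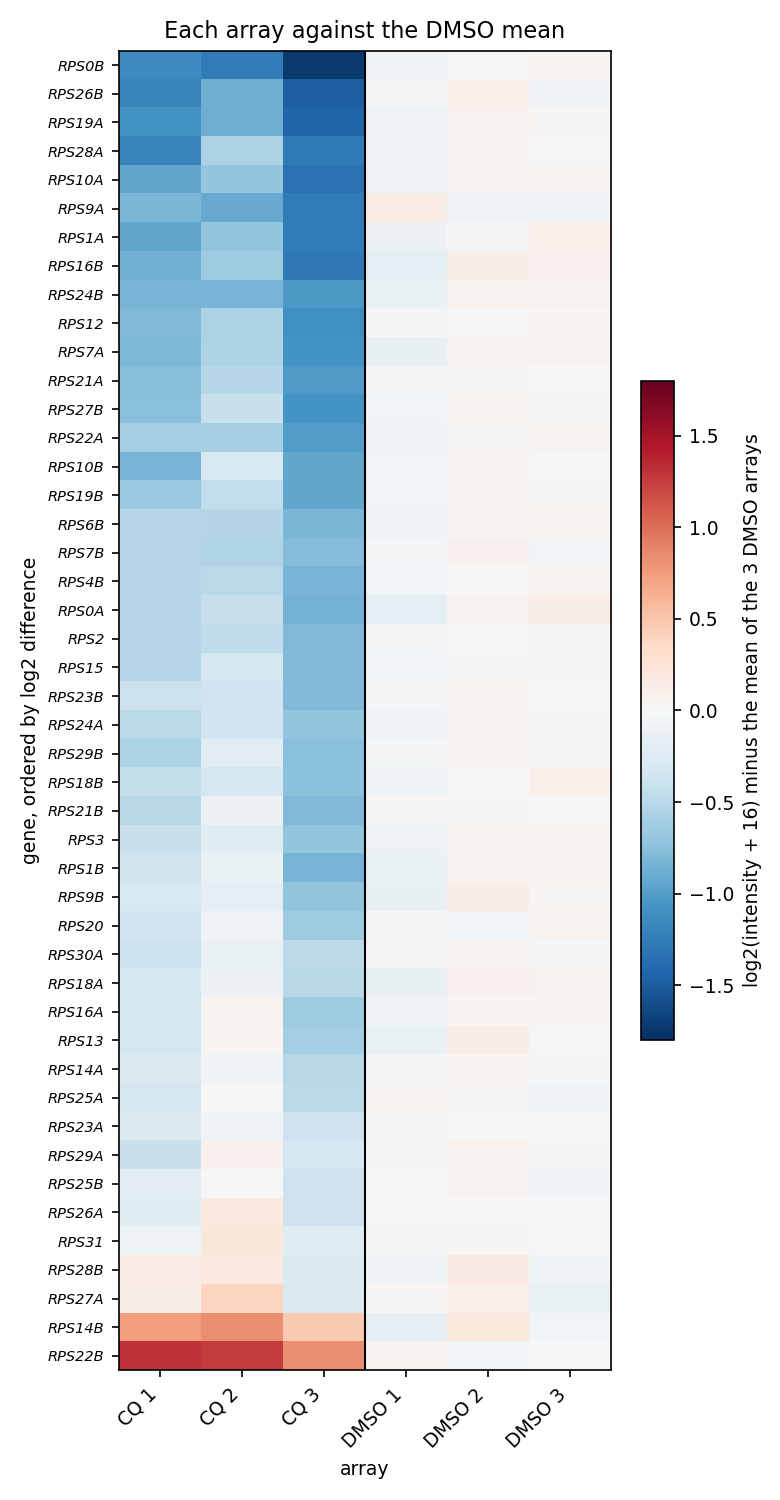
Colour map of log2(intensity + 16) minus the mean of the 3 DMSO arrays, for the same 46 genes (in rows, ordered by log2 difference) on the 6 arrays (in columns). CQ replicate 3 is the bluest column, with a median deviation over the 52 genes of -0.79, CQ replicate 2 the palest of the CQ columns with -0.31, and RPS14B and RPS22B are red on every CQ array.

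The CQ arrays lay entirely under the DMSO arrays for 38 members and entirely above them for 2. Over all genes 35.1% were separated as lower and 38.6% as higher, or 73.7% in either direction. RPS18A passed the test although its arrays overlapped, and RPS20 and RPS14A did not pass although theirs did not.

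By place in the subunit, 13 of 21 head genes fell and 0 rose, with a median of -0.49, and 24 of 31 body and platform genes fell and 2 rose, with a median of -0.59. The 7 genes without a paralogue had a median of -0.44, and 4 of them fell. RPS12 (YOR369C), which encodes eS12 in the beak of the head, read 5248, 6110.1 and 4224 with CQ and 8917, 9053 and 9275 with DMSO, and fell by 0.82 ± 0.13 on the log2 scale (SE, limma adjusted p = 0.000698). RPS2 (uS5), at the mRNA entry, fell by 0.59, RPS15 (uS19), whose tail reaches the decoding site, by 0.54, and RPS3 (uS3), which forms part of the mRNA entry, by 0.44. RPS3 did not pass without DMSO replicate 2 (-0.42) or 3 (-0.42). RPS20, RPS13 and RPS31 were the genes of this kind that did not pass.

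Zinc-binding proteins of the subunit are Rps26, Rps27, Rps29 and Rps31. Of their 7 genes 3 fell (RPS26B, RPS27B and RPS29B) and 4 did not pass, with a median of -0.21, against 34 lower and 2 higher of the 45 other members and a median of -0.58. These groups were set after the values were seen, and their difference was not tested. RPS29B did not pass with the trend on gene length removed (-0.18). With the probe-position index as a covariate the 4 genes that had not passed did pass as lower. Their differences were then -0.69 (RPS26A), -0.64 (RPS29A), -0.59 (RPS27A) and -0.45 (RPS31), with a largest limma adjusted p of 0.0232 (RPS31).

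The paralogue pairs differed within themselves. To test this, the log2 ratio of the A to the B gene was formed on each array and compared between CQ and DMSO, which asks whether the ratio changed and says nothing of which gene is more abundant, since intensities of different probe sets have no common scale. In 18 of 21 pairs the ratio changed with CQ (limma, adjusted over the 52 A/B pairs on the array). Over all 52 A/B pairs, 48 of which encode ribosomal proteins, 73.1% changed, and this share includes the 21 small-subunit pairs themselves. Among the 27 pairs of the large subunit 16 did. Whether the small subunit differs from the other pairs was not tested. In 8 of the 18 pairs the A gene was the less lowered, or raised, member and in 10 the B gene was. In 11 pairs both genes fell, in 7 only the A or only the B gene fell and the other did not pass, in the RPS22 pair the genes moved in opposite directions, in the RPS14 pair only the B gene passed, as higher, and in the RPS25 pair neither gene passed.

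The median SE was 0.09 for the pairs and 0.13 for the genes. These SEs come from separate limma fits, each of which shares variance among its rows, and the pair fit has far fewer rows. The SE of a pair, and the p-value that rests on it, therefore depend in part on the other pairs. Whether single pairs were measured more closely than genes was not tested. The RPS22 pair had the largest inequality, an A minus B difference of -1.87 ± 0.09 (SE, limma adjusted p = 3.07e-13). RPS26 followed with 1.04 ± 0.09, RPS28 with -1.04 ± 0.11, RPS14 with -0.96 ± 0.09 and RPS27 with 0.83 ± 0.09 (SE, largest limma adjusted p = 1.26e-07 among these 4). A minus sign means that the A gene was lowered more than the B gene. None of the genes of these 5 pairs used a shared probe set, and all 5 pairs stayed past the threshold in the 15 alternatives run for pairs, the index as a covariate included.

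**Figure D3:**
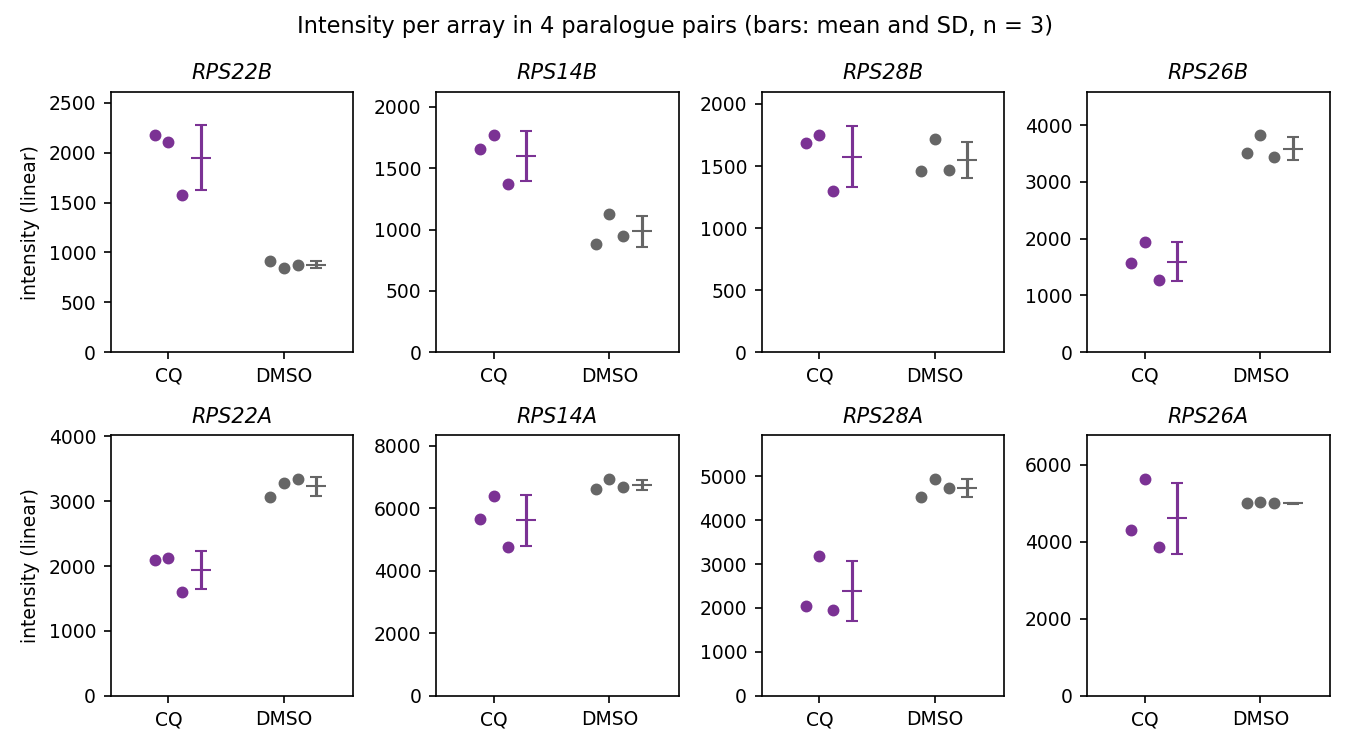
Linear intensity on each of 3 CQ and 3 DMSO arrays for the B gene (upper row) and the A gene (lower row) of 4 pairs, with mean and SD beside the points; each panel has its own scale from 0. RPS22B and RPS14B are higher with CQ, RPS22A, RPS28A and RPS26B are lower, and RPS28B and RPS26A overlap between the groups.

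In the RPS27 pair it was the B gene that fell: RPS27B (YHR021C) read 3239.6, 4141 and 2597 with CQ and 5299.8, 5594 and 5565 with DMSO, or -0.74 ± 0.15 (SE, limma adjusted p = 0.00303), without overlap. In the RPS0 pair both genes fell but RPS0B fell more. RPS0A (YGR214W) had 2825, 3008 and 2229 with CQ and 3549, 4188 and 4387 with DMSO, and its difference was -0.59 ± 0.13 (SE), so that A minus B was 0.78 ± 0.09 (SE, limma adjusted p = 3.22e-07).

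Rps16 (uS9) reaches with its tail toward the tRNA in the peptidyl site. RPS16B (YDL083C) read 2386, 2793 and 1767 with CQ and 3836, 4688 and 4589 with DMSO, without overlap, and fell by 0.93 ± 0.17 on the log2 scale (SE). RPS16A (YMR143W), on a shared probe set, read 3447, 4401 and 2729 with CQ and 4048, 4373 and 4379 with DMSO, with overlap and a difference of -0.30 ± 0.16 (SE, limma adjusted p = 0.124). The A minus B difference of this pair was 0.63 ± 0.09 (SE, limma adjusted p = 2.10e-06).

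In the RPS9 pair the A gene was lowered more. RPS9B (YBR189W) had 2321, 2515 and 1717 with CQ and 2568, 3042 and 2868 with DMSO, a difference of -0.38 ± 0.15 (SE, limma adjusted p = 0.0445) that did not pass without CQ replicate 1 (-0.44) or 3 (-0.22) or without DMSO replicate 2 (-0.33) or 3 (-0.37). A minus B was -0.61 ± 0.11 (SE, limma adjusted p = 4.56e-05), and -0.44 with the index as a covariate, which did not pass (limma adjusted p = 0.156).

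The inequality of the other changed pairs was smaller, from -0.54 for RPS1 and -0.45 for RPS19 to 0.28 for RPS23. In 9 of the 18 changed pairs 1 or both genes used a shared probe set. These include RPS16A, RPS19B, RPS23A, RPS24A and both genes of the RPS10 and RPS29 pairs. RPS7 (-0.20, 95% interval -0.40 to -0.002), RPS18 (0.18, 0.01 to 0.36) and RPS25 (-0.07, -0.24 to 0.10) did not pass after adjustment, although RPS18 did without CQ replicate 1 (0.22) or 2 (0.18) and RPS7 without CQ replicate 2 (-0.29) or DMSO replicate 1 (-0.25). RPS10 did not pass without CQ replicate 3 (-0.26). With the index as a covariate 10 pairs changed instead of 18. Among the pairs that then did not pass were RPS9, RPS10, RPS21, RPS23, RPS24 and RPS29. Of these, RPS23 (0.39) and RPS29 (0.43) had larger differences than without the index. The differences of RPS9 (-0.44), RPS10 (-0.24), RPS21 (-0.11) and RPS24 (0.20) were smaller. The index did not overlap between CQ and DMSO arrays, so this fit separates it poorly from CQ.

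**Figure D4:**
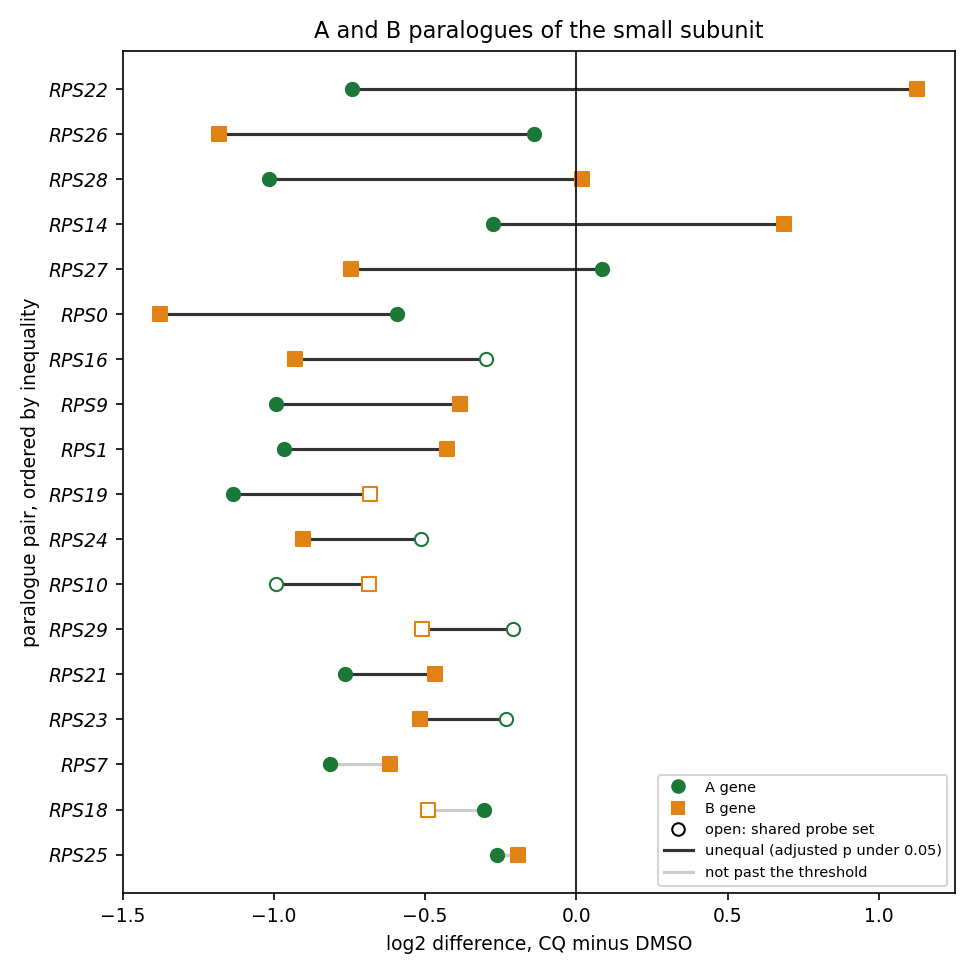
Log2 differences, CQ minus DMSO, of the A gene (circles) and the B gene (squares) of 18 of the 21 complete pairs, ordered by the size of the inequality; open symbols mark shared probe sets and dark lines pairs whose ratio changed. The line of RPS22 runs from -0.74 to 1.13, and that of RPS25 from -0.26 to -0.19.

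Shared probe sets did not always give the same value as a gene's own. For 13 genes the array carries a shared probe set and one that the manufacturer does not mark as shared, called the own probe set here. Their median log2 difference was -0.68 on own and -0.51 on shared probe sets. RPS23A (YGR118W), which encodes Rps23 (uS12) of the decoding centre, a protein hydroxylated by the iron-dependent enzyme Tpa1, differed most. Its shared probe set, used above, read 6705, 7555 and 6158 with CQ and 7833, 8043 and 8038 with DMSO, or -0.23 ± 0.09 (SE, limma adjusted p = 0.0492). Its own probe set read 2599, 2387 and 1868 with CQ and 4203, 4203 and 4337 with DMSO, or -0.90 ± 0.12 (SE; limma adjusted p = 0.000303 over all probe sets). The smaller value of RPS23A did not pass when any of 5 arrays was left out (all but CQ replicate 2), with differences between -0.25 and -0.16.

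RPS18B stood at -0.49 on the shared and -0.92 on its own probe set. For 7 of the 13 genes the ratio of the probe sets did not overlap between CQ and DMSO arrays, and in all 7 the own probe set showed the larger decrease. The ratio overlapped for RPS10B, RPS19B, RPS29A, RPS16A and RPS26A, among others. With own probe sets wherever a gene has one, 38 members fell and 2 rose, with a median of -0.60. The RPS23 pair then turned, with A minus B at -0.39 (limma adjusted p = 0.00062), and the RPS18 pair changed (0.62, limma adjusted p = 0.000143).

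**Figure D5:**
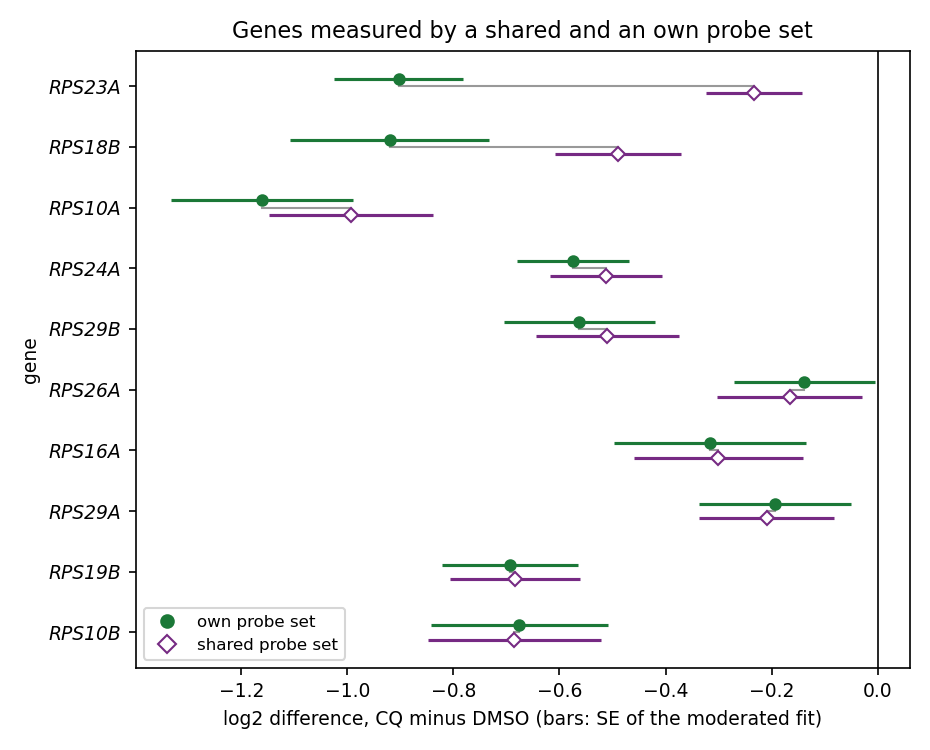
Log2 differences, CQ minus DMSO, with SE for 10 of the 13 genes that have an own probe set (filled circles) and a shared one (open diamonds), ordered by how far they differ. RPS23A lies at -0.90 and -0.23, while RPS10B and RPS19B have nearly the same value on both.

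The ribosomal proteins of the large subunit had a like median. Of their 70 genes 56 fell and 0 rose, with a median of -0.56, and of 9 mitochondrial small-subunit genes (MRPS) 6 fell and 0 rose, with a median of -0.35. No difference between these groups and the small subunit was tested.

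Genes that act on the small subunit were read from 4 lists. They are to be set against 31.9% of all genes called lower and 36.1% called higher, or 68% in either direction. Of 16 factors of late assembly and escort, 10 fell and 1 rose, and the list median was -0.41. Those that fell furthest were LTV1 (-1.51 ± 0.19), which is released from the pre-40S head by phosphorylation, SLX9 (-1.37 ± 0.12), which helps export of the particle, and TSR1 (-1.31 ± 0.08), which blocks early binding of translation factors (SE). Their intensities did not overlap between groups: LTV1 read 220, 158 and 255 with CQ and 504, 734 and 639 with DMSO. HRR25, the kinase that phosphorylates Ltv1, was the gene that rose, by 0.52 ± 0.09 (SE). Among the dedicated escorts, TSR2 for Rps26 (-0.17), YAR1 for Rps3 (-0.09) and FAP7 for Rps14 (0.11) did not pass.

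Of 18 regulators of ribosomal protein genes 6 rose, 4 fell and 8 did not pass, with a median of 0.12. Subunits of TOR complex 1 and its relative had the largest differences: TOR2 rose by 1.44 ± 0.08, KOG1 by 1.35 ± 0.12 and LST8 by 0.92 ± 0.21 (SE). TCO89, a further subunit of TOR complex 1, did not pass (0.07, limma adjusted p = 0.523). TOR2 read 1931, 1958 and 1813 with CQ and 740, 668 and 667 with DMSO, without overlap. YPK3, the kinase of Rps6, fell by 0.69, and TOR1, the other TOR kinase, rose by 0.75. Among the repressors CRF1 rose by 0.66 and TOD6 fell by 0.66, while DOT6 (0.18) and STB3 (0.20) did not pass. Among the activators and promoter-binding factors HMO1 fell by 0.64 and RAP1 by 0.20, and ABF1 rose by 0.59 (limma adjusted p = 0.0325) although its arrays overlapped, while IFH1 (-0.27), FHL1 (-0.40) and SFP1 (0.16) did not pass. These are transcript levels and do not measure activity.

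Of 10 genes of RNA processing and decay 4 fell, 1 rose and 5 did not pass, with a median of -0.19. MTR4, a helicase of the nuclear exosome, fell by 1.73 ± 0.17, RNT1, the RNase III named above for RPS22B, fell by 0.87 ± 0.11, and XRN1, the cytoplasmic 5' exonuclease, rose by 0.80 ± 0.10 (SE). RNT1 read 127, 115 and 101 with CQ and 204, 250.3 and 213 with DMSO. EDC3, named above for RPS28B, stood at -0.16 (limma adjusted p = 0.0777).

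Of 3 genes for other proteins bound to the small subunit 2 fell and 1 did not pass. STM1, which clamps ribosomes in an inactive state, fell by 0.98 ± 0.12, and HEL2, the ubiquitin ligase that marks Rps20 on collided ribosomes, fell by 0.70 ± 0.08 (SE). ASC1, the RACK1 protein of the head, had 5752, 6909 and 4758 with CQ and 4666, 4659.6 and 4775 with DMSO, a difference of 0.29 ± 0.13 (SE, limma adjusted p = 0.0793), with CQ replicate 3 among the DMSO arrays.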

How the data were processed

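The authors deposited 1 intensity on a linear scale for each of 10928 probe sets on each array. Per the labels' protocols, biotin-labelled cRNA was hybridised to Affymetrix arrays; how the intensities were computed and scaled is not given in the sources used here, and an intensity has no absolute unit. The annotation table paired 5498 probe sets with a single S. cerevisiae gene, and 12 symbols were updated by gene identifier through the RefSeq table of assembly R64. For 47 genes with several probe sets the brightest was kept, which left 5449 genes.

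Differences were fitted on log2(intensity + 16) in R 4.3.3 with limma 3.58.1, whose two-sided p-values from lmFit and eBayes were adjusted by Benjamini-Hochberg across 5449 genes; 0.05 was the threshold. A pseudocount understates changes of dim genes. Paralogue pairs were tested with the same model on the A minus B difference of each array, adjusted over the 52 A/B pairs of the array. Both fits were tested on simulated data with noise drawn separately for each gene or pair on each array. The SD of that noise was the same for CQ and DMSO arrays. Such noise does not cover the spread that the members shared among CQ arrays, nor their larger SD with CQ than with DMSO. Background on an array was the value that 95% of its 1746 fission yeast probe sets did not exceed. Exact permutation was used for the probe-position index, the mean over 6 control genes of the log2 ratio of the 3' to the 5' probe set. The number of arrays limits the precision. Promoter and protein sequences were not used here. Plots were drawn with matplotlib 3.10.9.

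The members, the gene lists and the tests were chosen with earlier results of these data known, and structural groups were written down after the values were seen. Values on each array are given for every member that rose, the 8 members with the largest decrease, the 4 with the smallest difference, the 3 brightest, and the members of the 8 most unequal pairs, and of each further list the 3 genes past the threshold with the largest difference are named. Some genes that this rule covers are not reported here by name or drawn, and they stay in every count and median. Further members and genes named as exceptions were picked with their values in view. The replicate numbers were not used to pair the arrays in the main fit, since the labels do not give them as a pairing. The correlations of deviations of CQ and DMSO arrays of the same number were 0.055, 0.12 and 0.14. Those of arrays of different numbers ran from -0.14 to -0.0044.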

Additional observations from a re-analysis of the deposited data

How the results depend on the processing

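Over 19 alternatives per member, 30 of the 37 decreases and the increase of RPS22B stayed past the threshold in all, and no member past the threshold turned its direction. Over 15 alternatives per pair, 10 of the 18 changed pairs stayed past the threshold in all, and 8 did not in at least 1. The counts of members lower with CQ ran from 31 to 47 when 1 array was left out, the counts higher stayed at 2, the medians ran from -0.65 to -0.42 and the counts of changed pairs from 17 to 20. With the probe-position index as a covariate the count of members higher was 1, the median of the members -0.95 and the count of changed pairs 10; the cause was not tested. Leaving out pairs with a shared probe set left 11 pairs, of which 9 changed. With the trend on gene length removed RPS28B passed as higher (0.32), and the median of the members was -0.46. The length used was the span of the gene in the RefSeq table, which includes introns and so is not the length of the mRNA. RPS18A (-0.25), RPS23A (-0.16), RPS29B (-0.18) and RPS30A (-0.22) then did not pass as lower. With the replicate block, which the labels do not give as a pairing, although each CQ array correlated best with the DMSO array of its number, 39 members fell, 2 rose and 19 pairs changed.

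Directions that turned belonged to members and pairs near 0 or to pairs on shared probe sets. RPS28B was at -0.051 with quantile normalization, -0.12 and -0.042 with arrays centred on the median and the 75th percentile, -0.41 with the index, and between -0.061 and 0.15 with 1 array left out. RPS27A was at -0.0078 with quantile normalization, -0.052 with centring on the median, -0.59 with the index, and between -0.068 and 0.26 with 1 array left out. RPS31 was at 0.021 with quantile normalization, 0.12 with the length trend removed, and between -0.16 and 0.051 with 1 array left out. With the length trend removed RPS25B was at 0.027, RPS26A at 0.066 and RPS29A at 0.12. The RPS25 pair was at 0.013 with quantile normalization, and the RPS23 pair at -0.052 with the mean of all probe sets and at -0.39 with own probe sets, an alternative chosen after seeing the data. The number of arrays and the brightness of the members, 7 of which exceed 50% of the array maximum in a group, limit what small differences can show.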
